A study of Mus musculus with 26 samples.

Results

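The enzymes that place and remove methyl groups on histones and other proteins were followed in mouse C2C12 myoblasts over the first 24 h of differentiation, with siRNAs against SMYD3 or with SMYD3 overexpression. They were chosen by symbol, as protein-coding genes of GENCODE M21 whose name is Kmt, Kdm, Setd, Prdm, Prmt, Nsd or Ehmt followed by a number, together with Ezh1, Ezh2, Suv39h1, Suv39h2, Setdb1, Setdb2, Ash1l, Dot1l, Carm1 and Jmjd6. Of the 55341 genes listed in each library, 71 had such a name, and 62 of these reached at least 10 counts in at least 3 of the 26 libraries. The other 9 were Kdm4d, Kdm5d, Prdm1, Prdm6, Prdm12, Prdm13, Prdm14, Prdm16 and Prmt8, none of which exceeded 11 counts in a library, and Prdm16, a regulator of the choice between muscle and brown fat, had at most 1 count. The SMYD genes are not among the 62.

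RNA-Seq of poly-A RNA was performed on C2C12 cells, a mouse myoblast line that stops dividing and fuses into myotubes when serum is withdrawn, at 0 h and 24 h of differentiation. In the siRNA experiment, cells were transfected on consecutive occasions with siCtrl, siSMYD3#1 or siSMYD3#2, and each of the 6 conditions had 3 libraries, 1 from RNA extracted with TRIzol and 2 from RNA extracted with the NucleoSpin kit. The last transfection came 24 h after the first, when differentiation was induced. Whether the 0 h libraries were taken before it is not stated. Its effect and that of time may thus not be separable in the siRNA time courses. In the overexpression experiment, cells with the Empty vector (pREV) were compared with SMYD3 overexpression (pREV-SMYD3 CL5), here SMYD3 CL5, with 2 TRIzol libraries for each of 4 conditions. SMYD3 CL5 is a single clone that carries HA- and Flag-tagged SMYD3 from a retrovirus, and the control line was sub-cloned as well, so in these libraries an effect of SMYD3 and a difference between clones cannot be told apart. The paper's experiments with another clone and with siRNA against SMYD3 in SMYD3 CL5 have no libraries here. The study calls its libraries biological replicates without saying which cultures were grown apart, so p-values measure the spread between these libraries. In bulk RNA, a change in the share of cells of one kind and a change in RNA per cell cannot be told apart.

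What a methylated histone lysine marks depends on its position. Methylation of H3K4 is found at active promoters and enhancers, that of H3K36 over transcribed genes, and that of H3K9 and H3K27 on silent chromatin. SET-domain enzymes place most of these marks, DOT1L methylates H3K79 without a SET domain, the PRMT family methylates arginines, and the LSD and JmjC families remove lysine methylation. In myoblasts, EZH2, the catalytic subunit of the Polycomb complex PRC2, and the H3K9 methyltransferases SUV39H1 and G9a are known to hold muscle genes silent, EZH1 is the PRC2 enzyme of non-dividing cells, and UTX (KDM6A) removes H3K27 methylation from muscle genes.

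Between 14315193 and 60398170 reads per library were counted on genes in the siRNA experiment and between 21124675 and 67853386 in the overexpression experiment, and levels are given in CPM (counts scaled to library size, with TMM factors). The targeted gene, Smyd3, lay between 17.8 and 21.6 CPM in the 6 siCtrl libraries, between 15.1 and 19.3 CPM under siSMYD3#1 and between 5.37 and 9.65 CPM under siSMYD3#2. Against siCtrl at 24 h its log2 fold change was -0.24 with siSMYD3#1 (± 0.16, SE, edgeR adjusted p = 0.414) and -1.51 with siSMYD3#2 (± 0.17, SE, edgeR adjusted p = 5.06e-05), so its fall passed the test under siSMYD3#2 and not under siSMYD3#1. In SMYD3 CL5 the counts on mouse Smyd3 did not pass the test at 24 h (0.36 ± 0.27, SE, edgeR adjusted p = 0.671), and whether reads of the introduced cDNA were counted there was not tested. The paper measured Smyd3 RNA by qPCR and SMYD3 protein by western blot after knockdown. It also checked the tagged protein in its clones by western blot. Those measurements are not part of these counts. The myoblast markers Myod1, Myf5 and Des were detected in all groups, with a summed level between 138 and 1611 CPM. In siCtrl at 0 h alone the sum ran from 156 to 1060 CPM. On the log2 scale, Des (-3.52 ± 0.09, SE) and Myod1 (-1.82 ± 0.20, SE) were lower in TRIzol than in NucleoSpin siRNA libraries. Myf5 did not pass that comparison (-0.21 ± 0.07, SE). Of 10 markers of blood, endothelial, fat, epithelial, glial and neuronal cells, Tubb3 (35.3 to 141 CPM) and Cd68 (1.57 to 6.57 CPM) were tested, the other 8 stayed at or below 0.276 CPM, and Epcam had 0 counts in all 26 libraries. The 2 SMYD3 CL5 libraries at 0 h stood apart from each other. Of the 62 genes, 24 differed more than 2-fold between them, against 4 in SMYD3 CL5 at 24 h and 0 in each vector condition, and 10 muscle differentiation genes summed to 91.9 CPM in one and 601 CPM in the other. Values of SMYD3 CL5 at 0 h without each of these libraries are given with the overexpression results.

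The promoters of these genes were searched for short motifs of dividing and of muscle cells, and the windows shown are those that held an E2F-like motif. RefSeq windows of 300 bases on GRCm38.p6, from 250 before the start site to 50 after it, were at hand for 47 of the 62 genes. The letters searched on both strands were TTTCCCGC, TTTCGCGC, TTTGGCGC and TTTGCCGC as E2F-like motifs of cell-cycle promoters, TTTGAA as the CHR element, and CAGCTG as an E-box bound by myogenic factors. An E2F-like motif was present in 4 of the 47 genes (8.51%), against 2.6% of all 27025 genes with a window and 4.59% of the 10519 of these that were tested in the siRNA libraries. The 4 windows are Ezh2 (chr6:47594981-47595280, minus strand), Suv39h1 (chrX:8074312-8074611, minus), Prdm4 (chr10:85916680-85916979, minus) and Kmt5c (chr7:4739877-4740176, plus), printed 5′ to 3′ on the strand of the gene with the motif or its reverse complement in capitals.
Ezh2: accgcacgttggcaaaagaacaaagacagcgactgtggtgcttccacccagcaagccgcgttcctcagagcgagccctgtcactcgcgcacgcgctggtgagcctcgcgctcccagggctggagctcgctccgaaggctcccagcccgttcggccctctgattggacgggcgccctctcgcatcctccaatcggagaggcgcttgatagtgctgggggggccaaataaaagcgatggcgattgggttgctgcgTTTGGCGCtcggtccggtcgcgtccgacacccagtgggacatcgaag
Suv39h1: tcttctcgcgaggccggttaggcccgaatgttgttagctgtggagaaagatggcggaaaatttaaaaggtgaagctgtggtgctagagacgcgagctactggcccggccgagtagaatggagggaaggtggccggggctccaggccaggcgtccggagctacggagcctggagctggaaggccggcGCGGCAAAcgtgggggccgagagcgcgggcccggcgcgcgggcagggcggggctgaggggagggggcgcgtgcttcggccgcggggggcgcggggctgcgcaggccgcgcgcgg
Prdm4: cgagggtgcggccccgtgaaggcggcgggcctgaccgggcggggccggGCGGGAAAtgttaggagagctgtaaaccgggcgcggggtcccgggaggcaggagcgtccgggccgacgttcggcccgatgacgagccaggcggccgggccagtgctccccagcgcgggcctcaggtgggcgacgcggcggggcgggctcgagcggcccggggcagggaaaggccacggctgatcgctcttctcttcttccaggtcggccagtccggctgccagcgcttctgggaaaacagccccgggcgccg
Kmt5c: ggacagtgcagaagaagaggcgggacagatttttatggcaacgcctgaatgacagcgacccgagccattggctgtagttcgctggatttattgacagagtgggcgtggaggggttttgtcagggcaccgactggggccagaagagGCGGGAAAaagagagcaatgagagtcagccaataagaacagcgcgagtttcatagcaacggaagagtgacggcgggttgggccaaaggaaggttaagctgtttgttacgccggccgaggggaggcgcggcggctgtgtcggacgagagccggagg
The motif lay 3 bases after the start site in Ezh2 and 64, 202 and 105 bases before it in Suv39h1, Prdm4 and Kmt5c. Over 24 h in siCtrl cells Ezh2, Suv39h1 and Prdm4 fell and Kmt5c rose. The motif was thus held by 3 of the 13 genes with a window that fell, 1 of the 7 that rose and 0 of the 27 that did not pass, and by 5 of 17 cell division genes (29.4%). The CHR letters were present in 4 of the 47 genes (8.51%, against 14.4% of tested genes) and the E-box letters in 12 (25.5%, against 18.3%), including 4 of the 13 that fell and 0 of the 7 that rose. These are matches of letters in a short window and are given as a description.

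Per kilobase of exon, the levels in siCtrl cells at 0 h ran from 106 ± 6.61 CPM per kb for Prmt1, which makes most asymmetric dimethylarginine, to 0.2 ± 0.124 CPM per kb for Prdm8 (SD, n = 3 each). Prmt1 stood clear of all others. The next 3, Ehmt2 (41.96 ± 5.06), Kmt5a (40.2 ± 8.52) and Prmt5 (38.7 ± 14.8), lay within each other's spread, followed by Kdm1a (30.6 ± 3.35), Kdm5c (26.9 ± 1.84) and Carm1 (24.5 ± 2.401). Setd4, Prdm9, Prdm11 and Prdm8 were the lowest, all below 1 CPM per kb. At 24 h Prmt1 was again the highest (74.8 ± 7.003 CPM per kb), before Ehmt2 (45.7 ± 1.53), Kdm1a (37.4 ± 3.18) and Kdm5c (31.9 ± 1.47).

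Over 24 h of differentiation in siCtrl cells, 4 of 6 H3K9 and 5 of 8 arginine methyltransferases fell, 7 of 16 Kdm genes rose, and Ezh1 and Ezh2 moved in opposite directions. In all, 24 of the 62 genes passed the threshold (edgeR quasi-likelihood test, Benjamini-Hochberg adjusted p-value under 0.01), 9 higher and 15 lower, which is 38.7% of the group against 29.4% of all 15820 genes tested (14.6% higher, 14.8% lower). DESeq2 called 27. The median log2 fold change of the 16 Kdm genes was 0.27, and 7 of them rose and 2 fell. Among the 46 other genes 2 rose and 13 fell, with a median of -0.09, and the median of all tested genes was 0.03. This division into Kdm and other genes was made after the values were seen and was not tested. At the same time 10 of 10 muscle differentiation genes rose (median log2 fold change 7.06) and 19 of 20 cell division genes fell (median -1.24), and their part in the changes described here was not tested.

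**Figure D1:**
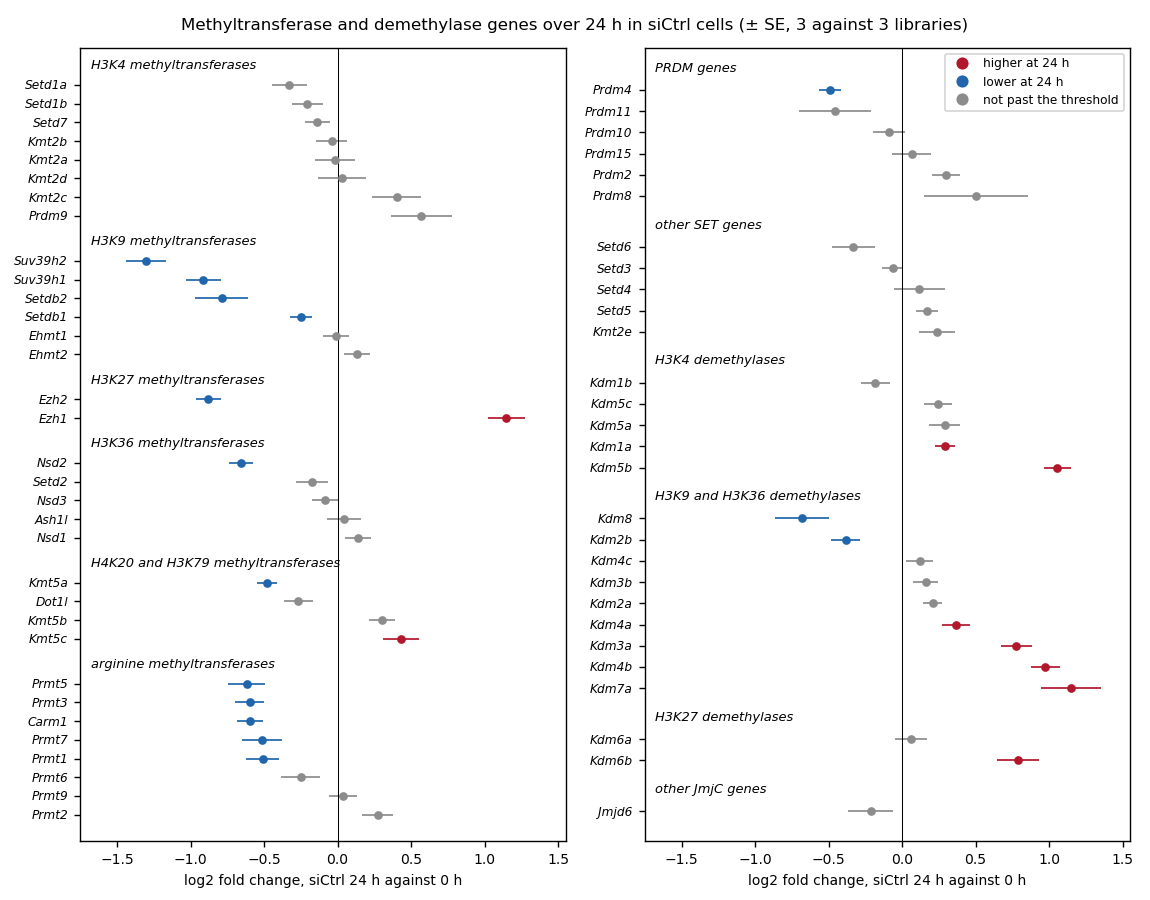
Log2 fold change at 24 h against 0 h in siCtrl cells (x axis) of 61 of the 62 genes (y axis), grouped by the main substrate of the enzyme, with bars for the SE from 3 libraries per time point and colour for the call. Past the threshold, 5 of 8 arginine and 4 of 6 H3K9 methyltransferases lie left of 0, and 7 of the 16 Kdm genes lie right of it.

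The H3K27 methyltransferases diverged. Ezh1 (ENSMUSG00000006920, chromosome 11, 101191115-101226463 of GRCm38, minus strand) was at 29.1, 20.1 and 21.6 CPM in siCtrl at 0 h, with the TRIzol library first and the NucleoSpin libraries after it here and below, and at 62.8, 47.1 and 46.4 CPM at 24 h. Ezh2 (ENSMUSG00000029687, chromosome 6, 47530139-47595341 of GRCm38, minus strand) was at 82.6, 113 and 114 CPM at 0 h and 47.9, 59.95 and 59.1 CPM at 24 h. The time points did not overlap for either gene, and at both times the TRIzol library was the highest for Ezh1 and the lowest for Ezh2. The log2 fold change was 1.15 ± 0.12, SE, edgeR adjusted p = 1.16e-06 for Ezh1, and -0.88 ± 0.09, SE, edgeR adjusted p = 2.83e-07 for Ezh2. Per kilobase of exon, the ratio of Ezh1 to Ezh2 went from 0.316, 0.16 and 0.17 to 1.18, 0.705 and 0.705, above 1 in the TRIzol library at 24 h and below 1 in the others. An antisense gene covers 174 of the 6678 exon bases of Ezh2, and the counting is not stated to have used strand.

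The other subunits of PRC2 were read alongside, and of 9 of them 5 fell and 2 rose. Eed (-0.60 ± 0.09, SE, edgeR adjusted p = 3.08e-05) and Suz12 (-0.63 ± 0.12, SE, edgeR adjusted p = 0.000302), which the enzyme needs for its activity, fell on the log2 scale, as did Rbbp4, Rbbp7 and the Polycomb-like subunit Phf19 (-1.02 ± 0.17, SE, edgeR adjusted p = 7.98e-05). The accessory subunits Jarid2 (0.38 ± 0.08, SE, edgeR adjusted p = 0.000592) and Phf1 (0.47 ± 0.11, SE, edgeR adjusted p = 0.0018) rose. Among the H3K27 demethylases, Kdm6b went from 80.3, 72.4 and 79.6 CPM to 120.5, 159 and 123 CPM without overlap (log2 fold change 0.79 ± 0.14, SE, edgeR adjusted p = 0.000287). Kdm6a, or UTX, was at 44.2, 60.8 and 55.3 CPM and then at 52.00, 54.1 and 60.6 CPM, which overlapped, with a log2 fold change of 0.06 ± 0.11, SE, edgeR adjusted p = 0.688.

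Of the 6 H3K9 methyltransferases, 4 fell and none rose. Suv39h2 (chromosome 2, 3455815-3475031 of GRCm38, minus strand), which with Suv39h1 places H3K9me3 at pericentric heterochromatin, had the lowest log2 fold change of the 62 genes. It went from 19.5, 21.8 and 18.1 CPM to 7.63, 8.37 and 7.97 CPM (-1.30 ± 0.14, SE, edgeR adjusted p = 6.33e-07). Suv39h1 (chromosome X, 8061171-8074760 of GRCm38, minus strand) went from 72.2, 67.8 and 69.5 CPM to 44.5, 32.3 and 35.3 CPM (-0.91 ± 0.12, SE, edgeR adjusted p = 7.02e-06). Every 24 h library was below every 0 h library for both. Antisense genes cover 767 of the 5270 exon bases of Suv39h1, and 357 and 83 of the 4410 of Suv39h2. Setdb2 went from 17.01, 17.7 and 15.1 CPM to 11.1, 8.81 and 9.08 CPM, again without overlap (-0.79 ± 0.18, SE, edgeR adjusted p = 0.00164). Setdb1, which silences retroelements with TRIM28, went from 90.5, 72.2 and 67.98 CPM to 75.5, 57.6 and 61.00 CPM, overlapping ranges with a smaller fall (-0.25 ± 0.07, SE, edgeR adjusted p = 0.00972) that was not called with the replicate number as a block. Ehmt1 and Ehmt2, the GLP and G9a enzymes of H3K9me1 and H3K9me2, did not pass, with log2 fold changes of -0.01 and 0.13 (edgeR adjusted p = 0.944 and 0.252). Of 6 readers and partners of H3K9 methylation, Cbx3 (-0.52 ± 0.15, SE, edgeR adjusted p = 0.00864), Trim28 and Uhrf1 (-1.51 ± 0.14, SE, edgeR adjusted p = 2.31e-07) fell and none rose.

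**Figure D2:**
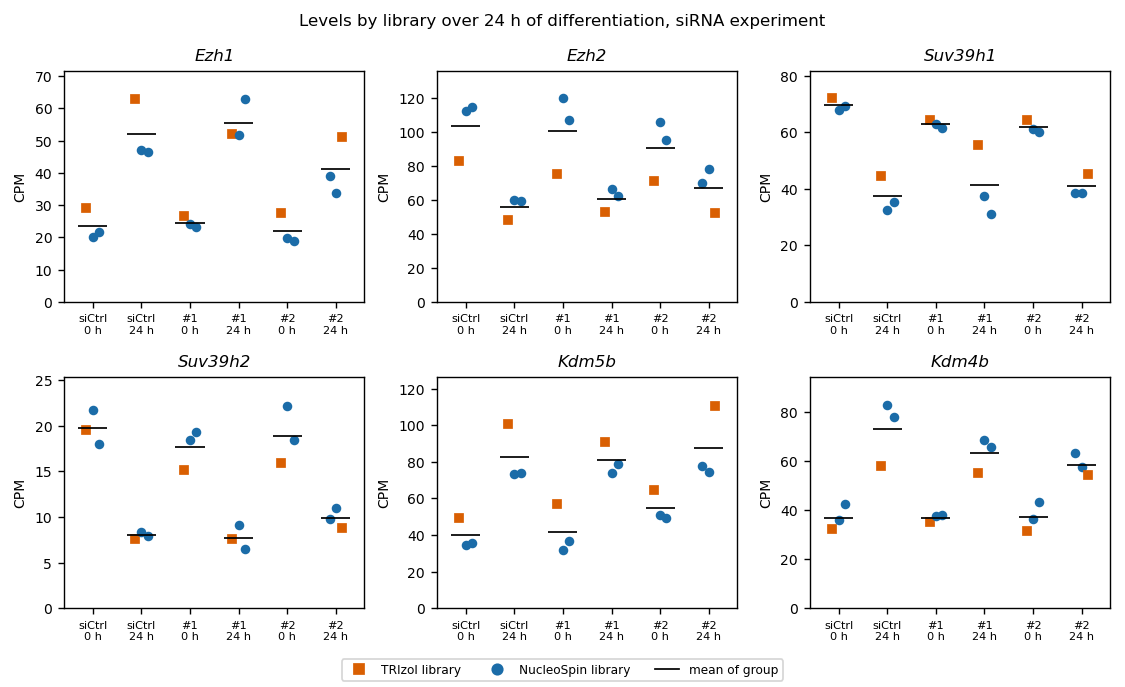
Levels in CPM (y axis, from 0) of Ezh1, Ezh2, Suv39h1, Suv39h2, Kdm5b and Kdm4b in each library of the 6 siRNA conditions (x axis), with squares for TRIzol libraries, circles for NucleoSpin libraries and lines for group means. The means of Ezh1, Kdm5b and Kdm4b are higher and those of Ezh2, Suv39h1 and Suv39h2 lower at 24 h than at 0 h under siCtrl, siSMYD3#1 and siSMYD3#2.

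Of the 8 H3K4 methyltransferases, 0 passed the threshold by edgeR or DESeq2, and 3 had an unadjusted p-value under 0.05, against 49% of all genes. Their log2 fold changes lay between -0.33 (Setd1a, edgeR adjusted p = 0.0299) and 0.57 (Prdm9, edgeR adjusted p = 0.0353). Kmt2d, which methylates H3K4 at enhancers, was at 257, 139 and 131 CPM and then 245, 153 and 131 CPM, with the TRIzol library far above the others at both times. Setd7, which monomethylates H3K4 and other proteins, was at 198, 173 and 171 CPM and then 193, 147 and 155 CPM (-0.14 ± 0.08, SE, edgeR adjusted p = 0.203). Of 8 tested subunits of the COMPASS complexes, in which the KMT2 and SETD1 enzymes act, Wdr5, Dpy30 (-0.78 ± 0.10, SE, edgeR adjusted p = 3.71e-06), Hcfc1 and Paxip1 fell and none rose. Of the 5 H3K4 demethylases 2 rose. Kdm5b (chromosome 1, 134560171-134635285 of GRCm38, plus strand), which removes H3K4me3, went from 49.03, 34.8 and 35.7 CPM to 101, 73.6 and 73.99 CPM (1.06 ± 0.09, SE, edgeR adjusted p = 1.01e-07), and Kdm1a, or LSD1, from 138, 169 and 168 CPM to 175, 201 and 205 CPM (0.29 ± 0.07, SE, edgeR adjusted p = 0.0022). Neither gene overlapped between time points. In CoREST, the complex in which Kdm1a acts, Phf21a rose and Hdac1 and Hdac2 fell among 6 subunits.

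Of the 5 H3K36 methyltransferases Nsd2 fell, from 142, 185 and 174 CPM to 99.9, 106 and 109 CPM without overlap (-0.66 ± 0.08, SE, edgeR adjusted p = 5.96e-06), and Nsd1, Nsd3, Setd2 and Ash1l had log2 fold changes between -0.17 and 0.14. The H4K20 enzymes were divided. Kmt5a, which monomethylates H4K20 in dividing cells, fell from 161, 242 and 237 CPM to 113, 177 and 169.7 CPM (-0.48 ± 0.07, SE, edgeR adjusted p = 1.37e-05), with overlap between time points and with the TRIzol library below both NucleoSpin libraries at each of them. Kmt5c, which adds further methyl groups in heterochromatin, rose by 0.43 ± 0.12, SE, edgeR adjusted p = 0.00948 on the log2 scale, a call lost with the replicate number as a block. Dot1l was at 102, 123 and 127 CPM and then 80.6, 112 and 102 CPM and did not pass (-0.27 ± 0.10, SE, edgeR adjusted p = 0.0332). Among 7 PRDM genes outside the H3K4 group Prdm4 fell (-0.49 ± 0.07, SE, edgeR adjusted p = 3.32e-05).

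The demethylases of H3K9 and H3K36 gave 4 rises and 2 falls among 9. Kdm7a (chromosome 6, 39136623-39206789 of GRCm38, minus strand), which removes H3K9me2 and H3K27me2, went from 26.9, 24.2 and 18.4 CPM to 53.4, 50.4 and 48.8 CPM (1.15 ± 0.20, SE, edgeR adjusted p = 0.000267). Kdm4b (chromosome 17, 56326062-56402870 of GRCm38, plus strand), an eraser of H3K9me3, went from 32.2, 35.9 and 42.7 CPM to 57.98, 83.1 and 78.1 CPM (0.97 ± 0.10, SE, edgeR adjusted p = 4.31e-07). Kdm3a, which acts on H3K9me1 and H3K9me2, went from 43.3, 48.95 and 44.7 CPM to 74.5, 79.02 and 81.4 CPM (0.78 ± 0.11, SE, edgeR adjusted p = 1.4e-05). All 24 h libraries were above all 0 h libraries for these genes and for Kdm4a, which went from 104, 98.9 and 109.7 CPM to 133, 139.9 and 129.7 CPM (0.37 ± 0.10, SE, edgeR adjusted p = 0.00493). Kdm2b, an H3K36 demethylase that brings Polycomb to CpG islands, fell (-0.38 ± 0.10, SE, edgeR adjusted p = 0.00479). Kdm8, a JmjC gene, went from 15.1, 5.598 and 7.15 CPM to 6.23, 5.17 and 4.83 CPM, with overlap (-0.68 ± 0.18, SE, edgeR adjusted p = 0.00602).

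Of the 8 arginine methyltransferases 5 fell and none rose. Prmt1 went from 371, 339 and 382 CPM to 282, 235 and 252 CPM (-0.51 ± 0.11, SE, edgeR adjusted p = 0.000966), and Carm1, or PRMT4, a coactivator of MEF2, from 117, 108 and 131 CPM to 72.1, 80.7 and 83.3 CPM (-0.60 ± 0.09, SE, edgeR adjusted p = 2.64e-05). Prmt5, which makes symmetric dimethylarginine, went from 221, 115 and 124 CPM to 108, 85.3 and 93.7 CPM (-0.62 ± 0.13, SE, edgeR adjusted p = 0.000742), with its TRIzol library at 0 h far above the other libraries. No 24 h library reached a 0 h library for any of them. Prmt3 (-0.60 ± 0.10, SE, edgeR adjusted p = 0.00011) and Prmt7 (-0.52 ± 0.14, SE, edgeR adjusted p = 0.00536) fell as well, as did Wdr77, Clns1a and Riok1 among 4 cofactors of PRMT5. Yipf2, which is antisense to Carm1, covers 1025 of its 4852 exon bases.

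The siCtrl time course was not equally firm for all genes. Leaving out 1 of the 18 siRNA libraries at a time gave between 17 and 24 calls. The calls of Kmt5c were lost in 12 of these 18 fits, of Setdb1 in 9, of Kdm1a and Kdm4a in 5 each, of Kdm2b and Prmt7 in 4 each, of Kdm8 in 3 and of Setdb2 in 1, and those of the other 16 genes were kept in all 18. Every siCtrl library was among those whose omission lost a call. Kmt5c was also lost without any siSMYD3#1 library at 0 h or without 1 NucleoSpin library of siSMYD3#2 at 0 h or either at 24 h, and Setdb1 without 1 siSMYD3#1 library at 0 h, the TRIzol library of siSMYD3#2 at 0 h or either NucleoSpin library of siSMYD3#2 at 24 h.

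Most of this time course was also found under both siRNAs. Between 24 h and 0 h, 21 of the 62 genes passed under siSMYD3#1 (10 higher, 11 lower, 33.9% against 25.4% of all genes, with 12.7% of all genes in each direction) and 18 under siSMYD3#2 (7 higher, 11 lower, 29% against 19%, with 9.11% of all genes higher and 9.88% lower). The 3 time courses come from separate libraries fitted together. Of the 24 genes called in siCtrl, 17 were called in the same direction under siSMYD3#1, which is 70.8% of the siCtrl list and 81% of the siSMYD3#1 list, and 17 under siSMYD3#2 (70.8% and 94.4%), and all 24 had the same sign under each. No share over all genes called in siCtrl is given beside these counts or the sign counts of the overexpression experiment below. Such counts do not show whether the 62 genes differ in this from other genes. Ezh1, Kdm3a, Kdm4a, Kdm4b, Kdm5b and Kdm7a rose in all 3 time courses, and Carm1, Ezh2, Kmt5a, Nsd2, Prdm4, Prmt1, Prmt3, Prmt5, Suv39h1 and Suv39h2 fell in all 3. Among these 16, leaving out 1 library at a time lost Carm1 in 10 and Kdm7a in 5 of 18 fits under siSMYD3#1. Under siSMYD3#2 it lost Prdm4 in 14, Carm1 and Prmt1 in 4 each, Kdm4a and Kdm7a in 3 each and Kdm3a and Prmt5 in 1 each. Carm1 under siSMYD3#1 was lost without any siSMYD3#1 library, either NucleoSpin library of siCtrl at 24 h, the TRIzol library of siSMYD3#2 at 0 h or 1 of its NucleoSpin libraries at 24 h (log2 fold changes from -0.35 to -0.26, edgeR adjusted p from 0.0102 to 0.0411). Prdm4 under siSMYD3#2 was kept without either TRIzol library of siCtrl, the TRIzol library of siSMYD3#1 at 0 h or 1 of its NucleoSpin libraries at 24 h. It was lost without any of the others (-0.32 to -0.26, edgeR adjusted p from 0.0103 to 0.046). The other losses followed the omission of siSMYD3#1 or siSMYD3#2 libraries of the same course, with edgeR adjusted p from 0.0101 to 0.0278. With the replicate number as a block, Carm1 was not called under siSMYD3#1 and Prdm4 was not called under siSMYD3#2. Set against the siCtrl changes over the 62 genes, those of siSMYD3#1 gave a Pearson r of 0.956 (Spearman rho 0.954) and those of siSMYD3#2 one of 0.913 (rho 0.901), as a description, since genes do not replicate a condition and all 3 courses share a fit. The ratio of Ezh1 to Ezh2 per kilobase went from 0.318, 0.18 and 0.194 to 0.884, 0.696 and 0.906 under siSMYD3#1 and from 0.349, 0.168 and 0.177 to 0.879, 0.501 and 0.387 under siSMYD3#2.

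The difference between these time courses was tested itself. It did not pass for any of the 62 genes under either siRNA (edgeR, 0 called for each, against 0.215% of all genes for siSMYD3#1 and 0.019% for siSMYD3#2), while 1 and 5 had an unadjusted p-value under 0.05 (against 8.77% and 10% of all genes) and DESeq2 called 0. Under siSMYD3#2 the smallest p-values were those of Ezh2, whose log2 fold change over time differed by 0.44 ± 0.12, SE, edgeR adjusted p = 0.138, and Kdm5b (-0.39 ± 0.13, SE, edgeR adjusted p = 0.259). Under siSMYD3#1 it was that of Carm1 (0.29 ± 0.12, SE, edgeR adjusted p = 0.485).

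**Figure D3:**
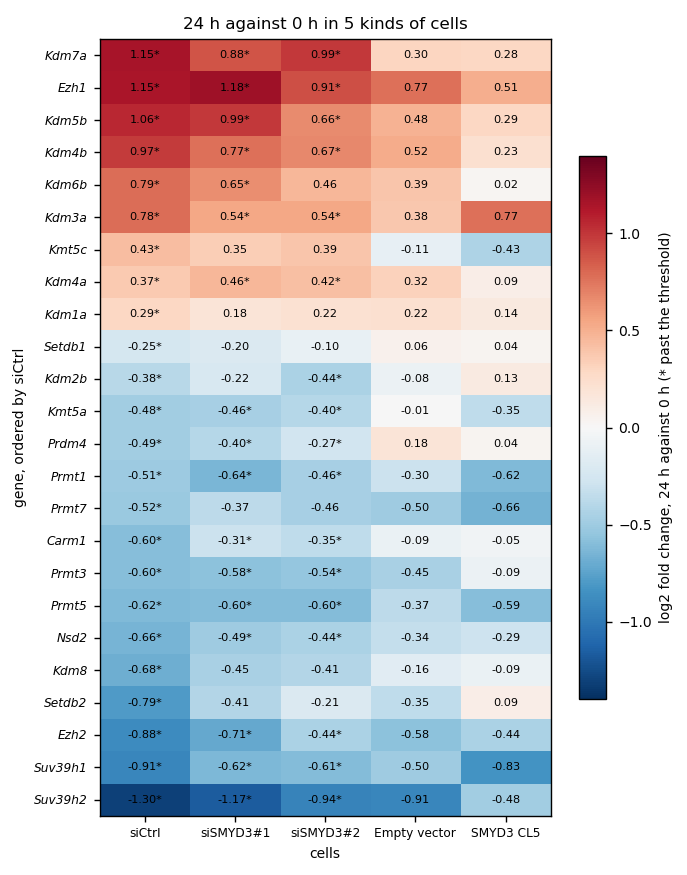
Log2 fold change at 24 h against 0 h (colour scale and printed value, with * past the threshold) of the 24 genes called in siCtrl (y axis) in siCtrl, siSMYD3#1, siSMYD3#2, Empty vector and SMYD3 CL5 cells (x axis). Both siSMYD3 columns have the sign of siCtrl in all 24 genes, the vector column in 21 and the SMYD3 CL5 column in 19 (12 without replicate 2 at 0 h).

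In the overexpression experiment, with 2 libraries per condition, 0 of the 62 genes passed between 24 h and 0 h in Empty vector cells or in SMYD3 CL5 (edgeR, against 0% of all 17835 genes tested in each), while 4 and 0 had an unadjusted p-value under 0.05 (against 7.04% and 6.38% of all genes) and DESeq2 called 0 in each. The edgeR tests used a spread estimated over all 8 libraries of vector and SMYD3 CL5 cells together. Between the 2 libraries of a condition the median log2 gap of the 62 genes was 0.084 at 0 h and 0.114 at 24 h in vector cells. In SMYD3 CL5 it was 0.752 and 0.318. At 24 h the 10 muscle differentiation genes summed to between 39.9 and 55.6 CPM in vector cells and between 460 and 1599 CPM in siCtrl cells. The time courses of vector and siCtrl cells thus ended at unlike levels of these genes. Of the 24 genes called in siCtrl, 21 had the same sign in vector cells, the others being Kmt5c, Prdm4 and Setdb1, and 19 in SMYD3 CL5, where Kdm2b and Setdb2 were opposite as well. In SMYD3 CL5 the number was 19 without replicate 1 at 0 h and 12 without replicate 2. Suv39h2 was at 12.7 and 16.7 CPM at 0 h and 8.09 and 7.58 CPM at 24 h in vector cells (-0.91 ± 0.24, SE, edgeR adjusted p = 0.456). Ezh1 was at 43.5 and 41.6 CPM and then 74.4 and 71.3 CPM (0.77 ± 0.23, SE, edgeR adjusted p = 0.514), and Ezh2 at 86.1 and 91.9 CPM and then 65.5 and 53.8 CPM (-0.58 ± 0.22, SE, edgeR adjusted p = 0.642). The time points did not overlap for these genes, although none passed. The ratio of Ezh1 to Ezh2 per kilobase went from 0.454 and 0.406 to 1.02 and 1.19 in vector cells, and from 0.737 and 0.419 to 0.992 and 1.21 in SMYD3 CL5.

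Few of the 62 genes differed between the siSMYD3 and the siCtrl cells. At 24 h Carm1 was higher under siSMYD3#1 and Kdm2a under siSMYD3#2, 1 gene or 1.61% each, against 5.85% and 3.7% of all genes tested. At 0 h Kdm2a was the gene called under each siRNA, against 1.43% and 0.531% of all genes. The contrasts at a time point share the siCtrl libraries. The median size of the log2 difference at 24 h was 0.11 in the 62 genes under siSMYD3#1 and 0.12 under siSMYD3#2, against 0.19 over all genes. At 24 h 10 and 9 of 10 muscle differentiation genes were lower and 3 and 7 of 20 cell division genes higher under siSMYD3#1 and siSMYD3#2, and their part in the values below was not tested.

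Kdm2a (ENSMUSG00000054611, chromosome 19, 4314419-4398285 of GRCm38, minus strand) encodes an H3K36me2 demethylase that binds unmethylated CpG islands. At 0 h it was at 151, 108 and 111 CPM in siCtrl, 191, 138 and 139.9 CPM under siSMYD3#1 and 199, 139 and 147 CPM under siSMYD3#2. At 24 h it was at 178, 126 and 123 CPM, 199, 153 and 152 CPM and 221, 160.1 and 162 CPM. Within each extraction every siSMYD3 library was above every siCtrl library at both times, while over both extractions the groups overlapped, Kdm2a being higher in TRIzol libraries by 0.46 ± 0.04 on the log2 scale (SE). At 0 h the log2 fold change was 0.35 ± 0.06, SE, edgeR adjusted p = 0.00426 for siSMYD3#1, and 0.40 ± 0.06, SE, edgeR adjusted p = 0.00255 for siSMYD3#2. At 24 h it was 0.25 ± 0.06, SE, edgeR adjusted p = 0.0169 for siSMYD3#1, short of the threshold, and 0.35 ± 0.06, SE, edgeR adjusted p = 0.00216 for siSMYD3#2. None of the 3 calls was made without the extraction term (edgeR adjusted p from 0.679 to 1), with all 26 libraries in 1 fit (0.275 to 0.592) or without the filter on low counts (0.0205 to 0.0756). That of siSMYD3#1 at 0 h was also not made in the NucleoSpin libraries alone (edgeR adjusted p = 0.0103). The log2 fold changes stayed between 0.34 and 0.40 in these fits. The siSMYD3#1 call at 0 h was lost without any siCtrl or siSMYD3#1 library at 0 h, or without 1 NucleoSpin library of siCtrl or of siSMYD3#2 at 24 h (log2 fold changes from 0.34 to 0.36, edgeR adjusted p up to 0.0372). The siSMYD3#2 call at 0 h was lost without any siCtrl library at 0 h, or the TRIzol or 1 NucleoSpin library of siSMYD3#2 at 0 h (from 0.37 to 0.41, edgeR adjusted p up to 0.0204). That at 24 h was lost without either NucleoSpin library of siCtrl or any library of siSMYD3#2 at 24 h (from 0.33 to 0.35, edgeR adjusted p up to 0.0213).

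Carm1 (ENSMUSG00000032185, chromosome 9, 21546894-21592623 of GRCm38, plus strand) was at 72.1, 80.7 and 83.3 CPM in siCtrl at 24 h, 94.3, 112 and 108 CPM under siSMYD3#1 and 92.1, 107 and 102 CPM under siSMYD3#2. No siCtrl library reached a library of either siRNA. The log2 fold change was 0.41 ± 0.09, SE, edgeR adjusted p = 0.00401 with siSMYD3#1, and 0.35 ± 0.09, SE, edgeR adjusted p = 0.0172 with siSMYD3#2, the latter past the threshold by DESeq2 and not by edgeR. At 0 h the libraries overlapped, with log2 fold changes of 0.12 and 0.11 (edgeR adjusted p = 0.633 and 0.784). The siSMYD3#1 call was lost without any siCtrl library at 24 h or either NucleoSpin library of siSMYD3#1 at 24 h (log2 fold changes from 0.39 to 0.44, edgeR adjusted p up to 0.0195), without the extraction term (edgeR adjusted p = 0.0477) and with all 26 libraries in 1 fit (edgeR adjusted p = 0.0191).

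**Figure D4:**
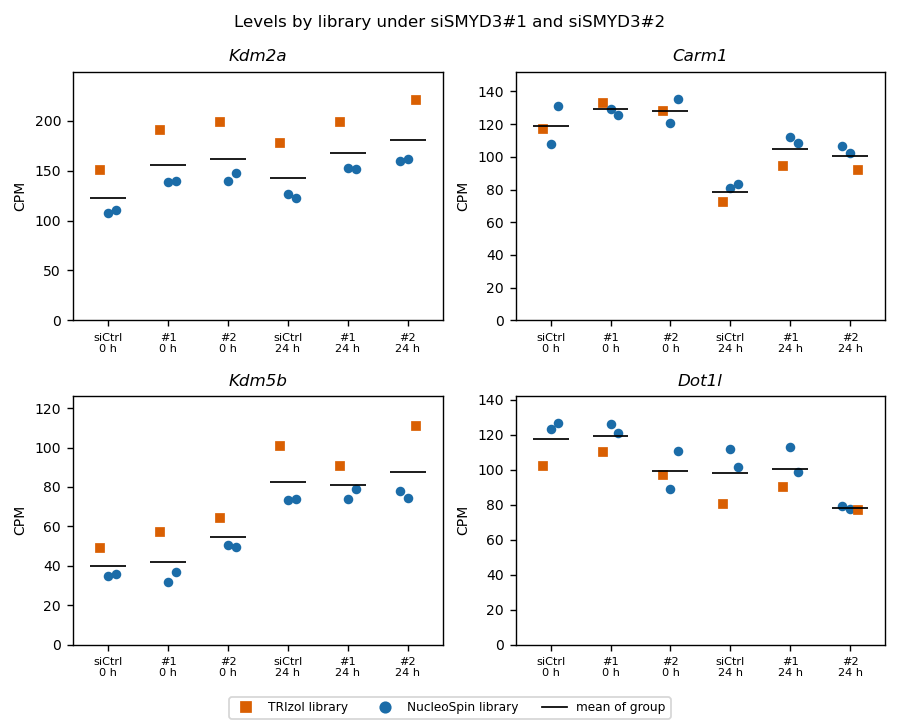
Levels in CPM (y axis, from 0) of Kdm2a, Carm1, Kdm5b and Dot1l in each library of siCtrl, siSMYD3#1 and siSMYD3#2 cells at 0 h and 24 h (x axis), with squares for TRIzol libraries, circles for NucleoSpin libraries and lines for group means. Kdm2a is higher under both siRNAs than in siCtrl within each extraction, and the siCtrl libraries of Carm1 at 24 h lie below all siSMYD3 libraries of that time.

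A few other genes had an adjusted p-value between 0.01 and 0.05. Under siSMYD3#1 at 24 h these included Prdm4 (0.24 ± 0.07, SE, edgeR adjusted p = 0.0459) and Ehmt1 (0.29 ± 0.09, SE, edgeR adjusted p = 0.0486). Under siSMYD3#2 at 24 h it was Dot1l, at 77.2, 79.1 and 77.7 CPM against 80.6, 112 and 102 CPM in siCtrl (-0.32 ± 0.10, SE, edgeR adjusted p = 0.0483). Its libraries did not overlap, and the gap was wider between the NucleoSpin than between the TRIzol libraries. Under siSMYD3#2 at 0 h it was Kdm5b, at 64.4, 50.7 and 49.4 CPM against 49.03, 34.8 and 35.7 CPM in siCtrl (0.47 ± 0.09, SE, edgeR adjusted p = 0.0122), also without overlap. Ezh1, Ezh2, Suv39h1 and Suv39h2 had log2 differences from siCtrl at 24 h of 0.11, 0.12, 0.14 and -0.03 under siSMYD3#1 and -0.34, 0.25, 0.13 and 0.30 under siSMYD3#2 (edgeR adjusted p from 0.0783 to 0.925). In the NucleoSpin libraries alone, 6 of the 62 genes were called under siSMYD3#1 at 24 h, against 11.6% of all genes. They included Carm1 and Ehmt1, which were higher, and Jmjd6, Prmt1 and Prmt5, which were lower. Between the TRIzol libraries the ratio of siSMYD3#1 to siCtrl was 1.307 for Carm1, 1.068 for Ehmt1 and 0.9544 for Prmt1. It was 1.17 for Jmjd6 and 1.175 for Prmt5, which thus were not lower there. In the fit of the NucleoSpin libraries 3 genes were called under siSMYD3#2 (Kdm2a higher, Dot1l and Kdm7a lower), against 8.38% of all genes. Among the partner lists, Jarid2 was higher (0.45 ± 0.08, SE, edgeR adjusted p = 0.00236) and the COMPASS-associated Ncoa6 lower (-0.48 ± 0.08, SE, edgeR adjusted p = 0.00236) under siSMYD3#1 at 0 h.

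Between the siRNAs at 24 h, 0 of the 62 genes passed (edgeR, against 3.36% of all genes), while 14 had an unadjusted p-value under 0.05 (against 22.2% of all genes) and DESeq2 called 0. Dot1l was at 90.2, 113 and 98.6 CPM under siSMYD3#1, with a log2 difference from siSMYD3#2 of 0.36 ± 0.10, SE, edgeR adjusted p = 0.0263. Ezh1 was at 52.2, 51.6 and 62.8 CPM under siSMYD3#1 and 51.01, 39.1 and 33.6 CPM under siSMYD3#2 (0.45 ± 0.12, SE, edgeR adjusted p = 0.0298). The libraries of the siRNAs did not overlap for either gene. In the NucleoSpin libraries alone 6 genes were called, Dot1l, Ezh1 and Kdm7a higher and Prmt1, Prmt2 and Prmt5 lower under siSMYD3#1, against 9.76% of all genes in that fit.

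In SMYD3 CL5 against Empty vector cells, 0 of the 62 genes passed at 24 h (edgeR, against 0.964% of all genes) and 0 at 0 h (against 1.07%), while 3 and 7 had an unadjusted p-value under 0.05 (against 14% and 18.3% of all genes) and DESeq2 called 0 and 1 (Prmt2). The spread, estimated over vector and SMYD3 CL5 libraries together, was wider than in the siRNA experiment, with a common dispersion of 0.0903 against 0.0159. At 24 h the smallest log2 change called among all genes was 1.87 in size, and the largest among the 62 was that of Nsd1 (-1.07). The median log2 difference was -0.27 at 24 h and -0.23 at 0 h, against 0.02 and -0.03 over all genes, and 45 and 44 of the 62 lay below 0. At 0 h the median was -0.37 with 42 genes below 0 without replicate 1 of SMYD3 CL5, and 0.02 with 29 below 0 without replicate 2, so its sign rested on replicate 2. Muscle differentiation genes summed to between 1142 and 1214 CPM in SMYD3 CL5 at 24 h and between 39.9 and 55.6 CPM in vector cells, and their part in these values was not tested.

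Carm1, Nsd1 and Prmt2 had an unadjusted p-value under 0.05 at both times, 3 of the 62 genes against 9.67% of all genes, and none of them passed the adjusted test. Carm1 was at 88.8 and 101 CPM in vector cells and 56.02 and 60.2 CPM in SMYD3 CL5 at 0 h (-0.71 ± 0.20, SE, edgeR adjusted p = 0.11), and at 90.2 and 88.02 CPM and 59.8 and 52.6 CPM at 24 h (-0.66 ± 0.20, SE, edgeR adjusted p = 0.156). Nsd1 (chromosome 13, 55209782-55318325 of GRCm38, plus strand), which dimethylates H3K36, was at 98.5 and 91.7 CPM and 60.9 and 30.04 CPM at 0 h (-1.06 ± 0.36, SE, edgeR adjusted p = 0.172) and at 114 and 105 CPM and 61.97 and 41.95 CPM at 24 h (-1.07 ± 0.36, SE, edgeR adjusted p = 0.208). Prmt2 (chromosome 10, 76207222-76237865 of GRCm38, minus strand), a weak arginine methyltransferase and nuclear receptor coactivator, was at 39.96 and 45.99 CPM and 79.9 and 102 CPM at 0 h (1.08 ± 0.27, SE, edgeR adjusted p = 0.0766) and at 62.5 and 54.7 CPM and 74.2 and 111 CPM at 24 h (0.66 ± 0.27, SE, edgeR adjusted p = 0.313). Every SMYD3 CL5 library was below every vector library of its time for Carm1 and Nsd1 and above it for Prmt2. When all 26 libraries were fitted together, Carm1 and Nsd1 were called lower at both times, and Dot1l, Prdm4 and Prmt2 higher at 0 h, against 7.63% of all genes called at 24 h and 11.4% at 0 h. At 0 h the log2 differences without replicate 1 and without replicate 2 of SMYD3 CL5 were -0.60 ± 0.18 and -0.73 ± 0.18 for Carm1, -1.60 ± 0.26 and -0.61 ± 0.24 for Nsd1 and 1.31 ± 0.24 and 0.92 ± 0.24 for Prmt2. Nsd1 and Prmt2 passed without replicate 1 (edgeR adjusted p = 0.00434 and 0.00705).

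**Figure D5:**
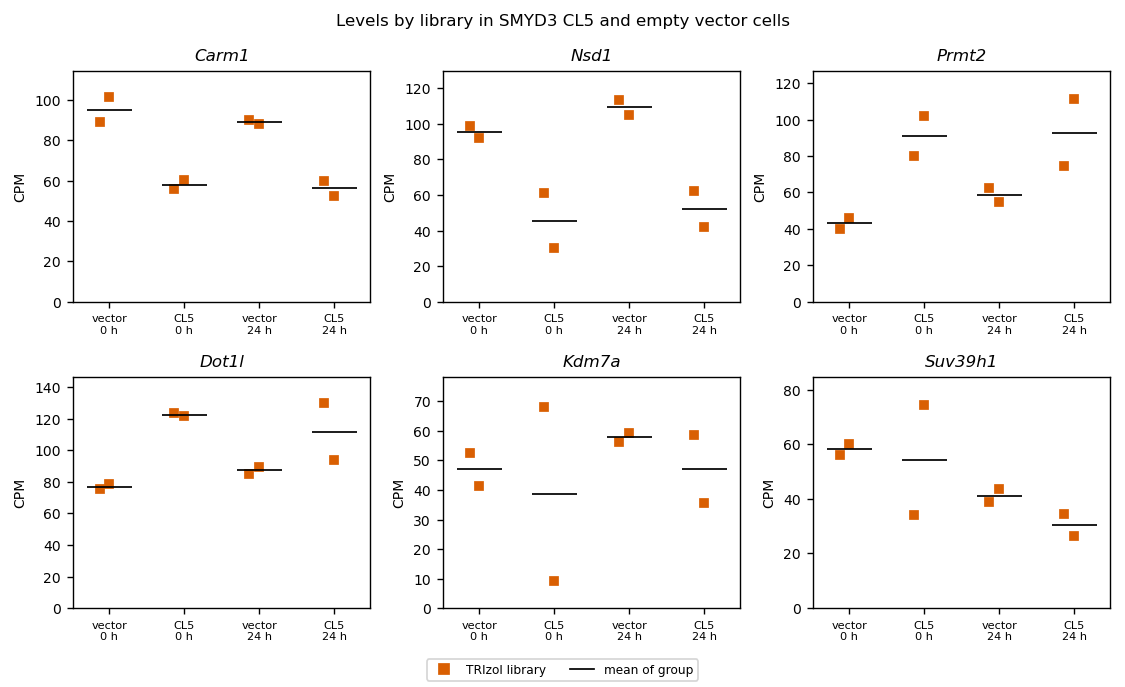
Levels in CPM (y axis, from 0) of Carm1, Nsd1, Prmt2, Dot1l, Kdm7a and Suv39h1 in each library (squares) of Empty vector and SMYD3 CL5 cells at 0 h and 24 h (x axis), with lines for group means. Carm1 and Nsd1 lie lower and Prmt2 higher in SMYD3 CL5 than in vector libraries of the same time, and the SMYD3 CL5 libraries at 0 h lie far apart for Kdm7a and Suv39h1.

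Dot1l was at 75.4 and 78.3 CPM in vector cells and 124 and 121 CPM in SMYD3 CL5 at 0 h (0.67 ± 0.23, SE, edgeR adjusted p = 0.17), and at 85.2 and 89.6 CPM and 130.0 and 93.5 CPM at 24 h (0.35 ± 0.22, SE, edgeR adjusted p = 0.582), without overlap and without passing. Kdm2a, which was higher under the siRNAs, had a log2 difference in SMYD3 CL5 of -0.41 ± 0.31, SE, edgeR adjusted p = 0.511 at 0 h, and of -0.49 ± 0.31, SE, edgeR adjusted p = 0.578 at 24 h. Without replicate 1 and without replicate 2 of SMYD3 CL5 at 0 h, the values at 0 h were 0.72 ± 0.21 and 0.72 ± 0.21 for Dot1l and -0.79 ± 0.23 and -0.04 ± 0.23 for Kdm2a, none of them past the test.

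The SMYD3 CL5 libraries at 0 h, numbered in accession order, set several values. Kdm7a was at 68.1 CPM in replicate 1 and 9.27 CPM in replicate 2, the widest gap of the 62 genes (7.34-fold), while Suv39h1 was at 34.1 and 74.4 CPM, Prmt1 at 147 and 409 CPM and Kdm6a at 61.7 and 17.7 CPM. Myog, an early muscle regulator, was at 15.9 and 81.9 CPM. In vector cells at 0 h no gene of the group differed by more than 1.79-fold. Without replicate 1, 12 of the 62 genes were called in SMYD3 CL5 against vector at 0 h, 3 higher (Prmt1, Prmt2 and Prmt7) and 9 lower (Kdm1b, Kdm2b, Kdm3a, Kdm5a, Kdm6a, Kdm7a, Kmt2e, Nsd1 and Setd7). This is 19.4% against 12.6% of all genes in that fit. Without it 9 were called between 24 h and 0 h in SMYD3 CL5, 5 higher (Kdm1b, Kdm3a, Kdm5a, Kdm6a and Kdm7a) and 4 lower (Prmt1, Prmt5, Prmt7 and Suv39h1). This is 14.5% against 5.51% of all genes. Without replicate 2, or without any other single library, 0 were called in either comparison. In these fits the lone remaining library is assumed to vary like the other groups.

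RNA extraction, which cannot be told apart from cell passage in this series, was compared in the siRNA experiment. Between TRIzol and NucleoSpin libraries 39 of the 62 genes differed, 24 higher and 15 lower in TRIzol (62.9% against 51.3% of all genes, 26.1% higher and 25.3% lower). Prdm11 (1.47 ± 0.14), Kmt2d (0.95 ± 0.10), Kdm8 (0.86 ± 0.11) and Setd1b (0.86 ± 0.06) were higher and Prdm8 (-2.48 ± 0.26), Prdm9 (-1.84 ± 0.14), Prmt2 (-0.61 ± 0.07) and Kmt5a (-0.61 ± 0.04) lower in TRIzol libraries, on the log2 scale with the SE. Prdm8, Prdm9 and Prdm11 had low mean counts over the siRNA libraries (26.9, 89.8 and 96.2). Exons of 29 of the 62 genes overlap another annotated gene, in 27 cases an antisense one, and their counts are uncertain to that extent. In Setd1a, 3523 of 6795 exon bases lie in a gene of the same strand.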

How the data were processed

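RNA-Seq was analysed in 26 libraries of C2C12 cells, 18 in the siRNA and 8 in the overexpression experiment. The deposited values are whole-number counts of reads per gene that the authors made from trimmed stranded poly-A reads, with 1 table per library and no normalization. The submitters' processing notes name FastQC 0.11.5, HISAT2 2.1.0, Subread 1.6.3 with featureCounts, and the build GRCm38; the strand setting is not given in the sources used here. Of the 55341 genes listed, 54495 were found in GENCODE M21, and no library pair held identical values.

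Each experiment was fitted on its own in R 4.3.3 with edgeR 4.0.16 (limma 3.58.1 loaded with it): genes with low counts were filtered by filterByExpr, counts were TMM-scaled, and robust quasi-likelihood tests were run with the group and, in the siRNA experiment, the RNA extraction as terms. The SE printed with a log2 fold change is the size of that change divided by the square root of the F statistic of its test. P-values were adjusted by Benjamini and Hochberg over all 15820 or 17835 genes tested, with a threshold of 0.01, and all 62 genes were tested in both. Totals of 14315193 to 67853386 counts per library set the counting precision, and PCR copies are not independent molecules. The procedure was tested on simulated data. DESeq2 1.42.0, other size factors, no filter, no extraction term, NucleoSpin libraries alone, 1 fit of all libraries, a threshold of 0.05, the replicate block and the omission of each library were tried as alternatives.

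The genes named with values are a fixed list of members and the 4 largest rises and 4 largest falls past the threshold with a mean count of at least 100 in each comparison. Other genes were named after their values were seen. A gene of the group enters the counts and is not reported here by name or value. The members and lists were chosen with earlier results of these data known. GEO's labels carry no replicate numbers, and those of the study's sample list were used for the block, in which the TRIzol library has number 3 in each siRNA condition and the NucleoSpin libraries have numbers 1 and 2: in the siRNA experiment same-numbered libraries deviated together (correlations from 0.517 to 0.913), but within the NucleoSpin libraries the correlations were between -0.000211 and 0.421, and the overexpression pairs gave -0.0313 and 0.155. A figure legend of the paper on the extraction batch instead sets replicate 1 apart from replicates 2 and 3.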

Additional observations from a re-analysis of the deposited data

How the results depend on the processing

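Results are counts of the 62 genes called. Shares over all genes are given above for some of these fits and not for the others. Where none is given, a change in a count cannot be told apart from a change in the calls of all genes. Fitting all 26 libraries together gave 14, 8 and 5 genes over time in siCtrl, siSMYD3#1 and siSMYD3#2, 0 in each of the 4 comparisons of a siRNA with siCtrl, 2 and 5 in SMYD3 CL5 against vector at 24 h and 0 h, and 1 over time in vector cells. Without the extraction term the 3 siRNA time courses gave 13, 7 and 4, and the 4 comparisons with siCtrl 0 each. At an adjusted p-value under 0.05 there were 29 over time under siSMYD3#2, 5 and 3 for siSMYD3#1 and siSMYD3#2 at 24 h, 2 for siSMYD3#2 at 0 h and 2 between the siRNAs. DESeq2 called 2 for each siRNA at 24 h, 2 for siSMYD3#2 at 0 h and 1 in SMYD3 CL5 at 0 h. Without the filter on low counts, siSMYD3#1 at 0 h gave 0 and SMYD3 CL5 at 0 h gave 1. At 24 h, the same setting lost Kdm2a and gained Kdm7a, lower, under siSMYD3#2, and at 0 h it lost Kdm2a and gained Kdm5b. NucleoSpin libraries alone gave 6 and 3 for siSMYD3#1 and siSMYD3#2 at 24 h, 0 and 2 at 0 h, and 6 between the siRNAs. Leaving out 1 library at a time gave 0 to 4 and 0 to 2 at 24 h and 0 to 1 and 0 to 2 at 0 h for siSMYD3#1 and siSMYD3#2, 0 to 2 between the siRNAs, 0 to 12 in SMYD3 CL5 at 0 h and 0 to 9 over time in SMYD3 CL5. The cause was not tested.

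With the replicate block, the time courses of siCtrl, siSMYD3#1 and siSMYD3#2 gave 23, 20 and 17 genes, with the losses named above and Kmt5b gained in siCtrl, and the block changed no other call. No single-gene call followed through these settings, all of them in the siRNA experiment, reversed its direction. In SMYD3 CL5 some signs did change. Over time, 19 of the 24 genes called in siCtrl had the siCtrl sign there, and 12 without replicate 2 at 0 h. Of the single-gene values, 471 kept their side of the threshold and 75 did not. With 2 libraries per condition and a wide spread, estimated over vector and SMYD3 CL5 libraries together, the overexpression experiment limits what can be called.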
